A study of Mus musculus with 9 samples.

Results

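The respiratory chain genes described here are the protein-coding mouse genes whose symbols begin with Nduf, Sdh followed by a, b, c or d, Uqcr, Cox4 to Cox8, Atp5, mt-Nd, mt-Co, mt-Cytb or mt-Atp. The rule found 111 genes among the 54532 gene identifiers of the count table. Of these, 86 are nuclear genes for subunits of complexes I to V, 12 are nuclear genes for assembly factors named Ndufaf or Sdhaf, and 13 lie on the mitochondrial genome. Bone marrow neutrophils of wild type C57/B6 mice were sequenced as RNA in 3 groups of 3 libraries, after 12 h at 0.5% FBS with PyMT-N cells in DMEM, with PyMT-M cells in DMEM, or alone. FACS separated the neutrophils from the co-cultured cells. The labels do not say that neutrophils cultured alone were sorted, so co-culture and sorting cannot be told apart. The labels explain neither the letters N and M nor which animal each replicate came from, so the p-values measure the spread between these libraries, which may be partly technical. Libraries were made from 150 pg of RNA.

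The respiratory chain passes electrons from NADH (complex I) and succinate (complex II) through ubiquinone to complex III, then through cytochrome c to complex IV, where oxygen is reduced. The proton gradient made on the way drives ATP synthase, complex V. Most subunits are encoded in the nucleus and imported, and a small core of complexes I, III, IV and V is encoded by mitochondrial DNA, transcribed as long precursors from both strands and cut into single messengers. Mature neutrophils are known for few mitochondria and for making most of their ATP by glycolysis.

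Nuclear respiratory genes share promoter elements, the best known bound by NRF1 and by the ETS factor GABP. In RefSeq promoter windows (GRCm38.p6, 250 bases before to 50 bases after the start), 78 of the 97 symbols of the nuclear genes had an entry. The NRF1 core letters CGCATGCG, which read the same on both strands, occurred in a window of 11 of these 78 genes (14.1%). Over all 27025 genes with a window the share was 2.07%. The GABP-type core CCGGAAG, searched on both strands, occurred for 26.9% of these respiratory genes and 9.93% of all genes with a window. The YY1 letters AAGATGGCG, also on both strands, occurred for 10.3% and 1.64%. The NRF1 letters are shown in capitals, 5′ to 3′ along each gene's strand, for Ndufa11 and Ndufaf4, called higher in both co-cultures than alone, and for Atp5g2, called lower with PyMT-N than with PyMT-M cells (its call against alone was lost in 5 of 9 omissions of 1 library and under leukocyte scaling, described below). Among the other genes with these letters, Ndufa8 was called higher in both co-cultures than alone, and Uqcr11 with PyMT-N cells only. Atp5j, Cox6a1, Ndufaf5 and Uqcrc1 were not called, and Atp5k was not tested. The genes listed here are not all of the 11. Ndufa11 was picked for this display after its values were seen.
Ndufa11, chr17:56717692-56717721, plus strand: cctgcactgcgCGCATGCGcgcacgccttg
Ndufaf4, chr4:24897960-24897989, plus strand: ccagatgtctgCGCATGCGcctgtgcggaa
Atp5g2, chr15:102671070-102671099, minus strand: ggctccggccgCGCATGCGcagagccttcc
These matches describe letters in a window and are no evidence of binding.

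The libraries held 1641049 to 4524563 counts, with 11814 to 17008 genes detected, and levels are given as counts per 1e6 counts after TMM normalisation (normalised CPM), of which 1 stood for 1.33 to 5.24 counts. Replicate 3 of the alone group stood apart: its log2 CPM correlated at 0.888 and 0.89 with the other alone libraries, while replicates elsewhere correlated at 0.961 or more. It also had the fewest counts and the fewest genes. Mitochondrially encoded messengers took 1.76% of its counts, against 0.324% to 0.371% with PyMT-N cells, 0.525% to 0.769% with PyMT-M cells and 0.235% and 0.180% in the other alone libraries. Results on mitochondrially encoded genes are therefore given with and without this library.

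Markers of other cells differed between the groups. Summed neutrophil markers (12 genes, all detected in every group) ranged from 15080 to 18740 normalised CPM with PyMT-N cells, 15030 to 19450 with PyMT-M cells and 31650 to 44150 alone. Summed epithelial markers (15 genes, of which 0, 3 and 5 were at 0 with PyMT-N cells, with PyMT-M cells and alone) ranged from 2939 to 3687 normalised CPM with PyMT-N cells, 277 to 355 with PyMT-M cells and 470 to 781 alone. Without Cd24a, which neutrophils also express, the epithelial sums were 2287 to 3072 with PyMT-N cells, 68.6 to 94 with PyMT-M cells and 5.28 to 22.4 alone. Summed mesenchymal markers without Vim, which leukocytes express, were 1524 to 1889.7 with PyMT-N cells, 1038 to 1100.4 with PyMT-M cells and 217 to 266 alone; with Vim, 4, 3 and 1 of the 15 markers were at 0. B cell, monocyte and macrophage, dendritic, and eosinophil and basophil markers were lowest in the co-cultures: the B cell sum was 17.2 to 21.2 with PyMT-N cells, 79.9 to 126 with PyMT-M cells and 590 to 1389 alone, and the eosinophil and basophil sum 19.2 to 20.1 with PyMT-N cells, 8.21 to 8.81 with PyMT-M cells and 299 to 412 alone. Single markers moved in both directions between the co-cultures, which the sums do not show. Of 12 neutrophil markers, 5 were called higher and 4 lower with PyMT-N than with PyMT-M cells. Of 10 tested mesenchymal markers without Vim, 4 were called higher and 5 lower. Most respiratory genes are used by all of these cell types, and the part of transcripts from other cells in the results below was not tested. In bulk RNA, fewer cells of a type and less RNA per cell cannot be told apart.

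Of the 111 genes, 94 passed the filter on low counts and were tested: 74 nuclear subunit genes, 10 assembly factor genes and 10 mitochondrially encoded genes. With PyMT-N cells, 20 of the 94 rose and 14 fell relative to neutrophils alone (edgeR quasi-likelihood test, Benjamini-Hochberg adjusted p under 0.05 over 12012 genes). These are 21.3% and 14.9% of the tested respiratory genes, against 29.4% higher and 23.6% lower of all tested genes, 53% in both directions together. With PyMT-M cells, 24 rose and 7 fell relative to alone, that is 25.5% and 7.45%, against 28.2% and 27.9% of all tested genes, 56.1% in both directions together. The shares of respiratory genes called were below those of all genes in each direction. Between the co-cultures, 1 was higher and 10 were lower with PyMT-N than with PyMT-M cells (1.06% and 10.6%, against 19.1% and 15.5% of all tested genes, 34.6% together). The median log2 fold change of the 94 genes was 0.02 with PyMT-N and 0.17 with PyMT-M cells relative to alone, and -0.15 between PyMT-N and PyMT-M, beside 0.12, -0.03 and -0.02 over all tested genes. Both co-cultures are set against the same alone libraries.

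The balance of rises and falls depended on scaling. When libraries were scaled to 31 leukocyte genes, the median over all genes shifted by 1.10 with PyMT-N and 1.46 with PyMT-M cells relative to alone, and by -0.40 between PyMT-N and PyMT-M. The higher and lower calls were then 53 and 1, 81 and 0, and 0 and 25 in these comparisons, beside backgrounds of 57.8% and 7.25% (65% together), 63.9% and 2.35% (66.2%), and 12.3% and 27.4% (39.7%). With library totals, whose shifts of the median were 0.29, 0.47 and -0.21, the calls were 27 and 4, 41 and 1, and 0 and 20. The shares of all tested genes called were not computed for library totals, so these counts cannot be set beside them. Counts of named genes cover the members named by the rule under processing, and no gene outside the 111. All 25 rises of these named members against alone, counted once per co-culture, kept their call under leukocyte scaling. Of their 14 falls against alone, only that of Cox7a2l with PyMT-N cells did. Among 20 genes of the tricarboxylic acid cycle and pyruvate supply outside the 111, this scaling called 2 lower with PyMT-N and 1 with PyMT-M cells. Every fall against alone below is a fall relative to the median gene. The 9 falls of PyMT-N against PyMT-M among the named members kept their call under that scaling. The scaling shifts most genes up against alone and down between PyMT-N and PyMT-M. It therefore favours keeping rises against alone and falls between the co-cultures, and is no independent support for them. The scaling genes did not move together. After scaling, 8 of 30 tested were called higher and 13 lower with PyMT-N cells, and 3 higher and 1 lower with PyMT-M cells. Without alone replicate 3 the calls were 24 and 12, 33 and 12, and 4 and 19, beside backgrounds of 31.1% and 26% (57.1% together), 29% and 30.7% (59.7%), and 23.9% and 20.8% (44.8%).

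**Figure D1:**
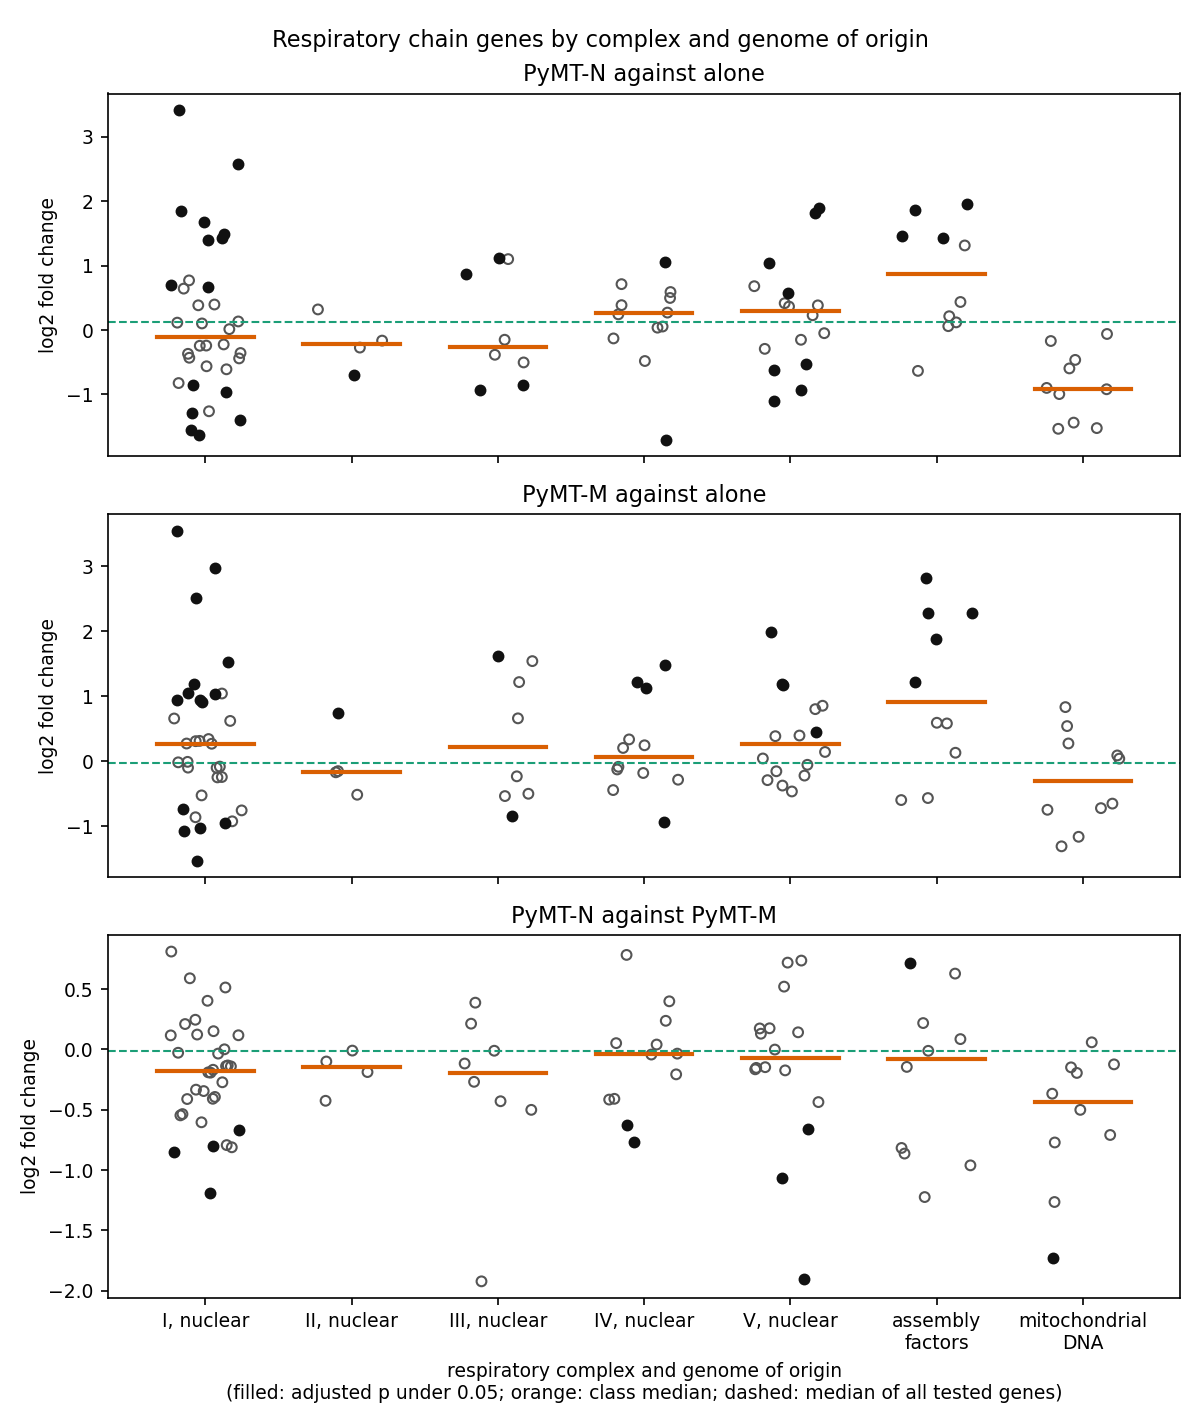
Log2 fold change of each tested respiratory chain gene (vertical axis) in 3 panels (PyMT-N to alone, PyMT-M to alone, PyMT-N to PyMT-M), by complex and genome of origin (horizontal axis). Filled points have an adjusted p under 0.05, orange lines are class medians and the dashed line is the median of all tested genes. Nuclear genes of complex I spread from -1.63 to 3.41 with PyMT-N cells, and no mitochondrially encoded gene is filled in either comparison with alone.

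Summed over all 86 genes and relative to the TMM scale, the nuclear subunit messengers overlapped between the 3 groups. They came to 3754, 4184 and 3911 normalised CPM with PyMT-N cells, to 4591, 4129.7 and 5032 with PyMT-M cells and to 3923, 4020.2 and 5138 alone. The log2 ratio of the sums was -0.13 with PyMT-N and 0.08 with PyMT-M cells relative to alone, and -0.21 between PyMT-N and PyMT-M, where the SDs on the log2 scale were 0.079 with PyMT-N cells, 0.14 with PyMT-M cells and 0.22 alone. Under leukocyte scaling the same ratios were 0.97, 1.59 and -0.62, so the level against alone depends on the scaling. Single complexes did not all do the same. The sum for complex V was 1353, 1378 and 1378 with PyMT-N cells and 1537, 1461 and 1659 with PyMT-M cells, both above 1213, 1229 and 1333 alone, with no overlap. For complex IV it was 788, 957 and 839.8 with PyMT-N cells, below 967, 1024 and 1432 alone, while PyMT-M libraries (996, 844 and 1039.5) overlapped both. For complex I it was 834, 949 and 896 with PyMT-N cells, 1108, 1012 and 1145 with PyMT-M cells and 850.2, 863 and 1026 alone, the PyMT-N libraries lying below all PyMT-M libraries. These sums are descriptions without a test.

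In complex I, the NADH dehydrogenase, genes moved in both directions. Of its 36 nuclear subunit genes 34 were tested. Relative to alone, 9 rose and 6 fell with PyMT-N cells, and 10 rose and 5 fell with PyMT-M cells. These are 26.5% and 17.6% with PyMT-N cells, beside 29.4% and 23.6% of all tested genes. With PyMT-M cells they are 29.4% and 14.7%, beside 28.2% and 27.9%. Ndufa12, a subunit of the matrix arm, stood at 77.8, 100 and 80.9 normalised CPM with PyMT-N cells, at 90.1, 104 and 146 with PyMT-M cells and at 12.9, 14.9 and 15.8 alone. All 6 co-culture libraries lay above all alone libraries. Its log2 fold change against alone was 2.57 ± 0.29 (SE) with PyMT-N cells (adjusted p = 3.35e-06) and 2.97 ± 0.29 with PyMT-M cells (adjusted p = 1.26e-06), and 17.7% of its 50-base stretches also occur in a pseudogene, so its counts carry some uncertainty. Another gene, Ndufa11 of the membrane arm, was named after its values were seen: it had 5.74, 9.64 and 10.8 normalised CPM with PyMT-N cells and 15.3, 5.73 and 8.25 with PyMT-M cells, against 1.34, 0.747 and 0 alone, which is at or below the level of 3 counts. Ndufaf2, the Ndufa12 paralog that holds the place of that subunit during assembly, was at 11.5, 6.89 and 13.6 with PyMT-N cells, 14.8, 16 and 27.2 with PyMT-M cells and 4.46, 1.87 and 6.79 alone. It rose by 1.46 ± 0.56 on the log2 scale with PyMT-N cells (adjusted p = 0.0387) and by 2.28 ± 0.51 with PyMT-M cells (adjusted p = 0.00156), the first of these a call lost without PyMT-N replicate 1 (1.43) or 3 (1.24) or alone replicate 1 (1.59) or 2 (1.01). An overlapping antisense gene shares 64.1% of its stretches, and no source used here states whether counting used the strand, so the genes cannot be told apart.

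Ndufa9, which sits where the matrix arm meets the membrane arm, also rose in both co-cultures. It had 46.5, 65 and 72.5 normalised CPM with PyMT-N cells and 62.8, 67.2 and 58 with PyMT-M cells, against 10.7, 25 and 32.4 alone, again without overlap. The log2 fold changes were 1.5 ± 0.32 (adjusted p = 0.00126) with PyMT-N and 1.52 ± 0.32 (adjusted p = 0.00102) with PyMT-M cells. Antisense genes overlap Ndufa9, as they do Ndufa2, Cox6c, Cox4i1 and Sdhaf2, with up to 6.2% of stretches shared. Ndufc2, a subunit of the membrane arm, was low throughout, at 6.31, 14.6 and 9.9 with PyMT-N cells, 19.3, 18.1 and 18.1 with PyMT-M cells and 3.56, 2.62 and 3.77 alone. Its log2 fold change was 1.67 ± 0.51 with PyMT-N cells (adjusted p = 0.0122) and 2.52 ± 0.46 with PyMT-M cells (adjusted p = 0.000317), the first lost without alone replicate 2 (1.49).

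Other subunits of the same complex fell. Ndufa6, a LYR-motif subunit that anchors the mitochondrial acyl carrier protein, stood at 10.9, 11.3 and 10.8 normalised CPM with PyMT-N cells and 18.1, 16 and 16 with PyMT-M cells, against 40.1, 30.6 and 30.9 alone. No co-culture library reached an alone library, and the log2 fold changes were -1.63 ± 0.29 (adjusted p = 0.00022) with PyMT-N and -1.03 ± 0.27 (adjusted p = 0.00433) with PyMT-M cells. Ndufa13, also known as GRIM-19, was at 11.2, 10.5 and 8.61 with PyMT-N cells and 7.74, 5.34 and 13 with PyMT-M cells, against 34.3, 20.5 and 16.6 alone. It fell by 1.28 and 1.53 on the log2 scale (adjusted p = 0.0112 and 0.00372), and 28.5% of its stretches are shared, mainly with the overlapping antisense gene Tssk6. The call with PyMT-N cells was lost without PyMT-N replicate 3 (-1.15) or alone replicate 1 (-0.92). The complex I gene of highest level per kilobase, Ndufa2, had 36.2 ± 2.71, 36.4 ± 7.83 and 46.8 ± 37.9 normalised CPM (SD, n = 3 each) with PyMT-N cells, with PyMT-M cells and alone, with no call.

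**Figure D2:**
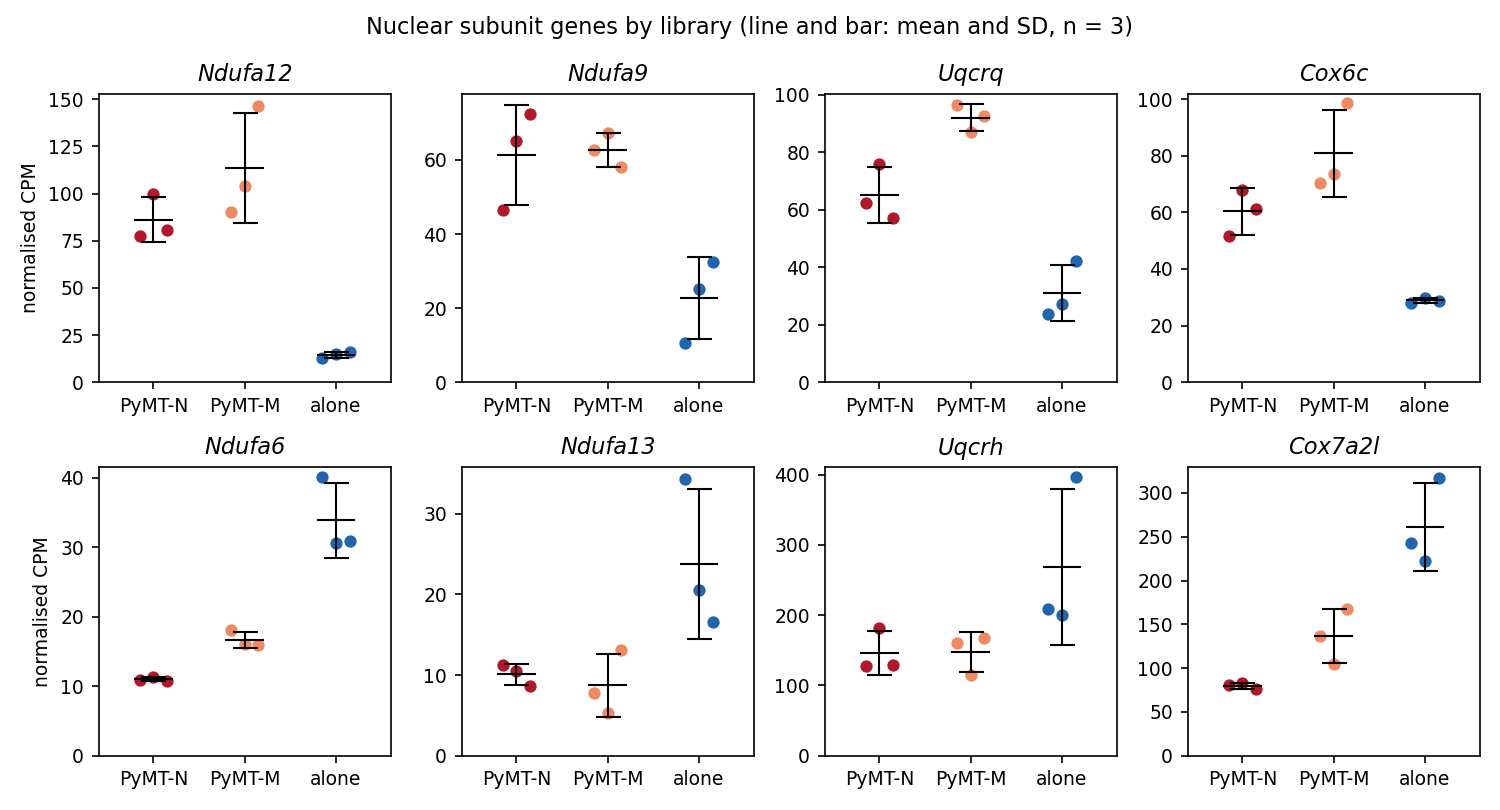
Normalised CPM (vertical axis) of 8 nuclear subunit genes in each library of the PyMT-N, PyMT-M and alone groups (horizontal axis), with mean and SD of 3 libraries. The upper row shows genes called higher in both co-cultures than alone and the lower row genes called lower in both: Ndufa12 reaches 77.8 or more in every co-culture library and at most 15.8 alone, and Cox7a2l at most 167 in co-culture and at least 223 alone.

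Of the 7 tested assembly factor genes named Ndufaf, 3 rose with PyMT-N cells and 4 with PyMT-M cells and 0 fell, relative to alone. These are 42.9% and 57.1% of a small list, beside 29.4% and 28.2% of all tested genes, and the 3 calls with PyMT-N cells were each lost without some single libraries. Ndufaf4, which acts in assembly of the quinone-binding part, was at 15.2, 10.5 and 14.6 normalised CPM with PyMT-N cells, 20.6, 24.6 and 28.7 with PyMT-M cells and 1.78, 1.49 and 9.81 alone. The lowest co-culture library was just above alone replicate 3, and the log2 fold changes were 1.96 ± 0.56 (adjusted p = 0.00807) with PyMT-N and 2.83 ± 0.51 (adjusted p = 0.000278) with PyMT-M cells, the first lost without alone replicate 2 (1.47). Ndufaf1, a member of the assembly complex that also holds ECSIT, rose by 1.44 ± 0.49 and 1.22 ± 0.49 on the log2 scale (adjusted p = 0.0224 and 0.0473). Its level was 8.9, 16.8 and 13.8 with PyMT-N cells, 7.95, 13.4 and 12.8 with PyMT-M cells and 3.56, 3.74 and 9.05 alone, so that the groups overlapped at alone replicate 3. Its call was lost in 4 of the 9 single-library omissions with PyMT-N cells (1.22 to 1.41) and in 6 with PyMT-M cells (1.00 to 1.23). Ndufaf7, a methyltransferase acting on a complex I subunit, was at 23.1 ± 2.67, 14.8 ± 0.448 and 21.7 ± 2.58 (SD, n = 3 each) with PyMT-N cells, with PyMT-M cells and alone, and none of its comparisons passed the test. Summed over 8 genes, the Ndufaf level was 72.6 ± 3.05 with PyMT-N cells, 84.3 ± 11.9 with PyMT-M cells and 45.3 ± 8.97 alone (SD, n = 3 each).

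Complex II, succinate dehydrogenase, is the one complex encoded wholly in the nucleus. Of its 4 subunit genes, 1 fell with PyMT-N cells and 1 rose with PyMT-M cells, relative to alone. Each is 25% of the 4, beside 23.6% lower and 28.2% higher of all tested genes in those comparisons. Under leukocyte scaling 3 were called higher with PyMT-N cells and 4 with PyMT-M cells, and 0 lower. These are 75% and 100%, beside 57.8% and 63.9% of all tested genes. Sdha, the flavoprotein, had 108 ± 6.89, 116 ± 6 and 130.0 ± 16.9 normalised CPM (SD, n = 3 each) with PyMT-N cells, with PyMT-M cells and alone, and Sdhb, the iron-sulfur subunit, had 68.5 ± 5.9, 69 ± 14.3 and 78.2 ± 23.9. On the TMM scale neither passed the test in any comparison. Of the membrane anchors, Sdhc was at 94.1, 101 and 93.2 with PyMT-N cells, 121, 112 and 155 with PyMT-M cells and 83.3, 81.5 and 63.4 alone. It rose with PyMT-M cells by 0.74 ± 0.21 on the log2 scale (adjusted p = 0.00657), and the PyMT-N difference of 0.32 did not pass (adjusted p = 0.212). Sdhd, the other anchor, was at 109.6, 124 and 99.7 with PyMT-N cells, 146, 105 and 128 with PyMT-M cells and 147, 127 and 279.8 alone. It fell with PyMT-N cells by 0.71 on the log2 scale (SE 0.26, adjusted p = 0.0347), a call lost without alone replicate 3 (-0.29) or without any single PyMT-N library (-0.77 to -0.62).

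Complex III carries electrons from ubiquinol to cytochrome c. Of its 8 nuclear genes, 2 rose and 2 fell with PyMT-N cells, and 1 rose and 1 fell with PyMT-M cells. These are 25% each with PyMT-N cells, beside 29.4% and 23.6% of all tested genes. With PyMT-M cells they are 12.5% each, beside 28.2% and 27.9%. Uqcrq, a small membrane subunit, was at 62.3, 76 and 57 normalised CPM with PyMT-N cells, 96.3, 87 and 92.6 with PyMT-M cells and 23.6, 27.3 and 42.2 alone. The 3 groups did not overlap, and its log2 fold change against alone was 1.12 ± 0.26 (adjusted p = 0.00194) with PyMT-N and 1.62 ± 0.25 (adjusted p = 8.23e-05) with PyMT-M cells. Uqcr11, another small subunit, rose by 0.87 ± 0.33 with PyMT-N cells (adjusted p = 0.0376), a call lost without PyMT-N replicate 2 (0.82) or 3 (0.77) or alone replicate 1 (0.96) or 3 (0.67). Uqcrh, the hinge protein and the complex III gene of highest level per kilobase, was at 128, 182 and 129 with PyMT-N cells, 160.4, 114 and 168 with PyMT-M cells and 209, 199.5 and 397 alone. It fell in both, by 0.86 with PyMT-N cells and 0.85 with PyMT-M cells on the log2 scale (SE 0.26 each, adjusted p = 0.013 and 0.0129). The first call was lost without PyMT-N replicate 1 or 3 (-0.76 in each fit) and the second without PyMT-M replicate 2 (-0.67). Uqcrfs1, the Rieske iron-sulfur protein, fell by 0.93 with PyMT-N cells (SE 0.28, adjusted p = 0.0107) and had 31.7 ± 7.66, 43.3 ± 7.77 and 62.6 ± 17.7 normalised CPM (SD, n = 3 each) with PyMT-N cells, with PyMT-M cells and alone. One value stood out after inspection: Uqcr10 had 228 normalised CPM in PyMT-M replicate 3 and 18.7 and 31.7 in the other PyMT-M libraries, against 17.2, 26.4 and 27.8 with PyMT-N cells and 29.4, 42.6 and 17.3 alone. That library gives the complex III sum its highest PyMT-M value, 724, beside 481 and 424.

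Complex IV, cytochrome c oxidase, has 20 nuclear genes in the list, many of them tissue-specific alternatives of 1 subunit, and 12 were tested. Cox4i1, the common form of subunit 4 and the nuclear respiratory gene of highest level per kilobase (323 normalised CPM per kilobase), was at 387, 491 and 436 normalised CPM with PyMT-N cells, 489, 384 and 473 with PyMT-M cells and 457, 544 and 841 alone. The groups overlapped and no comparison passed, although without alone replicate 1 it was called lower with PyMT-N (-0.65) and PyMT-M cells (-0.61). Its alternative Cox4i2 reached at most 1.72 normalised CPM in any library. The alternatives Cox6a2, Cox6b2, Cox7a1, Cox7b2, Cox8b and Cox8c, known from muscle or testis, and Ndufa4l2 were likewise too low to test. Cox7b2, Cox8c and a second identifier named Atp5o had no count in any library, which allows up to 0.573 to 2.26 normalised CPM per library (3 counts, counting error only). The common forms Cox6a1, Cox6b1, Cox7a2 and Cox8a passed no test in the main TMM fit of all libraries. The group means lay between 13.2 and 17.4 normalised CPM for Cox6a1, 44.8 and 52.7 for Cox6b1, 23.7 and 30.9 for Cox7a2, and 10.7 and 19 for Cox8a. Without alone replicate 3, Cox8a was called higher with PyMT-N than with PyMT-M cells (0.78).

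Cox6c, a subunit with no alternative form in the list, rose in both co-cultures. It was at 51.7, 68 and 61.3 normalised CPM with PyMT-N cells, 70.5, 73.5 and 98.5 with PyMT-M cells and 28.1, 29.9 and 28.7 alone, with no overlap between the groups. Its log2 fold change was 1.06 ± 0.25 (adjusted p = 0.00233) with PyMT-N and 1.48 ± 0.25 (adjusted p = 0.000146) with PyMT-M cells. Ndufa4, named for complex I but a subunit of complex IV, was at 31.3, 41.9 and 36.4 with PyMT-N cells, 57.8, 51 and 60.4 with PyMT-M cells and 24.1, 25 and 23.4 alone. Only its rise with PyMT-M cells passed (1.21 ± 0.25, adjusted p = 0.000784; with PyMT-N cells 0.59 ± 0.26, adjusted p = 0.0657). Cox7b rose with PyMT-M cells by 1.12 ± 0.39 (adjusted p = 0.0221), a call lost without PyMT-M replicate 1 (0.98), alone replicate 1 (0.90) or alone replicate 2 (1.06).

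Cox7a2l, also called SCAF1, showed the lowest fold change of all nuclear subunit genes tested with PyMT-N cells. Its level was 80.4, 82.6 and 76.2 normalised CPM with PyMT-N cells, 136, 105 and 167 with PyMT-M cells and 243, 223 and 318 alone, so the groups were separate. Against alone it fell by 1.70 on the log2 scale with PyMT-N cells (SE 0.21, adjusted p = 9.92e-06) and by 0.93 with PyMT-M cells (SE 0.21, adjusted p = 0.00143). Cox7a2, its relative within the enzyme, was at 30.9 ± 3.13 with PyMT-N cells, 29.6 ± 8.06 with PyMT-M cells and 23.7 ± 0.756 alone (SD, n = 3 each), with no call. A pseudogene shares 13.8% of the Cox7a2l stretches.

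ATP synthase, complex V, has 18 nuclear genes here, of which 16 were tested. Relative to alone, 4 rose and 4 fell with PyMT-N cells, and 4 rose and none fell with PyMT-M cells (at this threshold in edgeR). These are 25% each with PyMT-N cells, beside 29.4% and 23.6% of all tested genes. With PyMT-M cells they are 25% and 0%, beside 28.2% and 27.9%. The 3 genes for subunit c encode the same mature protein of the rotating ring with different import sequences, and they moved differently. Atp5g1 was at 54.5, 60.1 and 43.7 normalised CPM with PyMT-N cells, 65.1, 52.5 and 60.4 with PyMT-M cells and 12, 16.4 and 16.6 alone. It rose by 1.82 ± 0.28 (adjusted p = 7.73e-05) and 1.99 ± 0.28 (adjusted p = 3.36e-05) on the log2 scale, with no overlap. Atp5g3 was at 93.9, 111 and 97.3 with PyMT-N cells, 107, 98.9 and 129.6 with PyMT-M cells and 57.5, 37.4 and 54.3 alone, and rose by 1.04 ± 0.23 (adjusted p = 0.00148) and 1.18 ± 0.23 (adjusted p = 0.000494). Atp5g2 was at 31, 29.8 and 35.1 with PyMT-N cells, 82.8, 102 and 178 with PyMT-M cells and 33.9, 51.6 and 134 alone, with the alone libraries widely spread.

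For Atp5g2 the co-cultures did not overlap. Its log2 fold change was -1.91 ± 0.41 for PyMT-N against PyMT-M (adjusted p = 0.00236), -1.11 ± 0.44 for PyMT-N against alone (adjusted p = 0.0475) and 0.80 ± 0.41 for PyMT-M against alone (adjusted p = 0.109). The call of PyMT-N cells against alone was lost without any single PyMT-N library, without PyMT-M replicate 2 (-1.18 to -1.04 in these fits) or without alone replicate 3 (-0.42), and the PyMT-M difference was called without alone replicate 3 (1.48). Of all subunit c counts, Atp5g2 took 17.3% ± 2.56 with PyMT-N cells, 40.3% ± 7.89 with PyMT-M cells and 49.0% ± 16.3 alone (SD, n = 3 each), and Atp5g1 took 28.4% ± 3.09 with PyMT-N cells, 20.9% ± 4.58 with PyMT-M cells and 11.8% ± 3.76 alone. These shares were chosen after the values were seen and carry no test. Other annotated genes share 38.3% of the Atp5g2 stretches (36.7% with the pseudogene Gm10175) and 11.1% of those of Atp5g1 (6.9% with Gm10039), and none of those of Atp5g3.

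**Figure D3:**
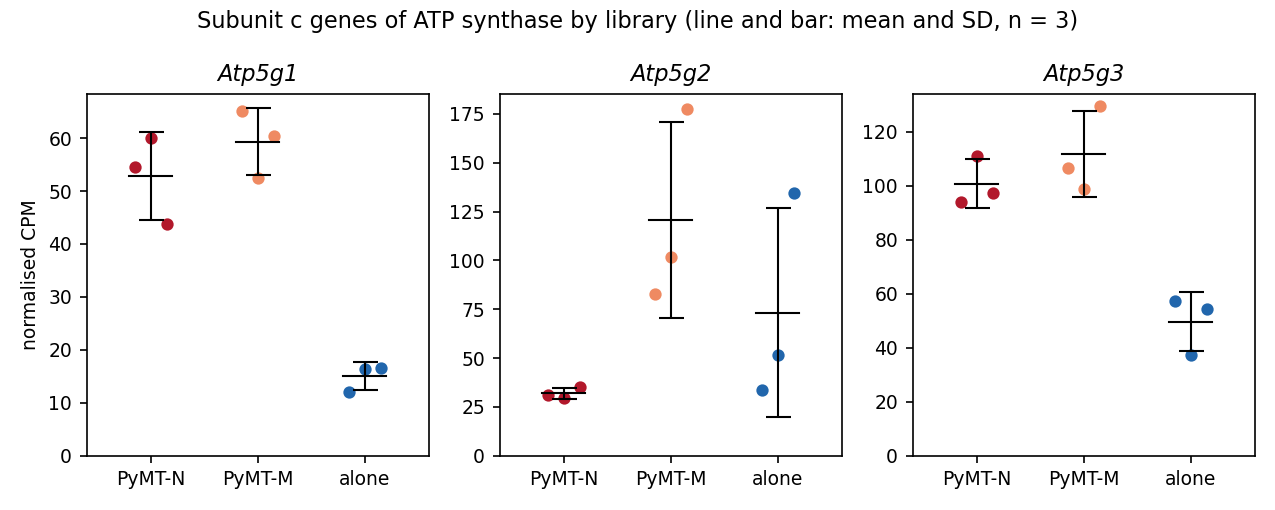
Normalised CPM (vertical axis) of the 3 subunit c genes in each library of the PyMT-N, PyMT-M and alone groups (horizontal axis), with mean and SD of 3 libraries. Atp5g1 and Atp5g3 are higher in all co-culture libraries than alone, whereas Atp5g2 is at 29.8 to 35.1 with PyMT-N cells and 82.8 or more with PyMT-M cells.

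The shaft and the stalk of the enzyme each held a gene that was lower with PyMT-N cells. Atp5c1, the central shaft subunit gamma and the complex V gene of highest level per kilobase, was at 184, 168 and 179.7 normalised CPM with PyMT-N cells, 278, 251 and 311 with PyMT-M cells and 293, 312 and 207 alone. Every PyMT-N library lay below all others. The log2 fold change was -0.62 ± 0.19 for PyMT-N against alone (adjusted p = 0.0114, lost without alone replicate 2 at -0.50) and -0.66 ± 0.18 for PyMT-N against PyMT-M (adjusted p = 0.0111). Atp5h, subunit d of the peripheral stalk, was at 16.4, 19 and 14.4 with PyMT-N cells, 35, 28.2 and 41 with PyMT-M cells and 31.6, 28.8 and 34.7 alone. It fell by 0.92 against alone (SE 0.29, adjusted p = 0.0134, lost without PyMT-N replicate 3 at -0.81) and by 1.06 against PyMT-M (SE 0.26, adjusted p = 0.0049) on the log2 scale, and 19.9% of its stretches are shared.

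Set directly against each other, the co-cultures gave calls mostly in 1 direction: 10 genes were lower and 1 higher with PyMT-N than with PyMT-M cells. These are 10.6% and 1.06% of the members tested, beside 15.5% and 19.1% of all tested genes. Nuclear subunit genes made up 9 of the 10, from complex I (4), IV (2) and V (3). Besides Atp5g2, Atp5h, Atp5c1, Cox7a2l (log2 fold change -0.77 ± 0.21, adjusted p = 0.00997) Ndufa4 (-0.62 ± 0.22, adjusted p = 0.0365) and Ndufc2 (-0.85 ± 0.31, adjusted p = 0.0475), they include Ndufb10 and Ndufa10, both subunits of the membrane arm of complex I. Ndufb10 was at 31.3, 35.5 and 21.7 normalised CPM with PyMT-N cells and 75, 54.4 and 71.9 with PyMT-M cells, beside 37.4, 44.5 and 83.7 alone. The co-cultures did not overlap (log2 fold change -1.19 ± 0.29, adjusted p = 0.00511), and its fall against alone (-0.85 ± 0.32, adjusted p = 0.0342) was lost without alone replicate 3 (-0.49) or PyMT-N replicate 1 (-0.89) or 3 (-0.65). Ndufa10 was at 27.8, 34.7 and 35.9 with PyMT-N cells and 51.4, 55.2 and 66.3 with PyMT-M cells, beside 39.2, 26.2 and 23.4 alone (-0.80 ± 0.24, adjusted p = 0.0173). Without PyMT-M replicate 3 the calls of Cox7a2l (-0.60), Ndufa10 (-0.70), Ndufa4 (-0.58) and Ndufc2 (-0.87) were lost, and without PyMT-N replicate 1 those of Ndufa10 (-0.70), Ndufa4 (-0.53) and Ndufc2 (-0.61); the last 2 were also lost in other omissions. The lone gene higher with PyMT-N cells, Sdhaf2, an assembly factor that adds the flavin to SDHA, was named after its values were seen: 37.9, 51 and 61.1 against 30.3, 26.1 and 35.7 normalised CPM with PyMT-M cells (0.72, adjusted p = 0.0469). The count of 10 became 4 without PyMT-M replicate 3, 5 without PyMT-N replicate 1 and 19 without alone replicate 3, which enters the shared estimate of spread. Epithelial markers without Cd24a were 2287 to 3072 and 68.6 to 94 normalised CPM in these co-cultures, and their part in the differences was not tested.

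Single libraries moved the counts against alone too. The 20 rises with PyMT-N cells became 13 without alone replicate 1 and 12 without alone replicate 2, and the 14 falls became 8 without PyMT-N replicate 1 and 6 without PyMT-N replicate 3. For PyMT-M cells the 7 falls became 4 without PyMT-M replicate 2 and 12 without alone replicate 3. Of 48 calls on members named by the rule under processing, 28 held in all 9 fits that left out 1 library. Among them were those of Ndufa12, Ndufa9, Ndufa6, Uqcrq, Cox6c, Atp5g1 and Atp5g3 against alone.

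The 13 mitochondrially encoded genes were summed to 3783, 3128 and 3596 normalised CPM with PyMT-N cells, 4518, 5041 and 6689 with PyMT-M cells and 2827, 2136 and 21719 alone. Both co-cultures lay above 2 alone libraries and below the third. In the fit of all 9 libraries, none of the 10 tested genes was called in either comparison with alone by edgeR, and 0 had an unadjusted p under 0.05. DESeq2 gave an adjusted p for 5 of them, with 1 called lower with PyMT-N cells (mt-Nd6) and 0 with PyMT-M cells. Other edgeR settings on all libraries gave calls in both directions. Leukocyte scaling called 4 of 10 higher with PyMT-M cells and 0 with PyMT-N cells, below the 63.9% and 57.8% of all tested genes it called higher. The 4 were mt-Nd2, mt-Co2, mt-Co3 and mt-Atp6. The last 3 had low counts and shared nearly all their sequence with nuclear copies, described below. The fit without a filter on low counts called 5 of 13 lower in each comparison with alone, and the fit without robust moderation called 1 lower with PyMT-N cells. Shares of all tested genes were not computed for these 2 fits. Without alone replicate 3, 4 of 10 were higher with PyMT-N cells (31.1% of all tested genes were) and 8 of 10 with PyMT-M cells (29% were), and none was lower. Without alone replicate 1 or 2 instead, mt-Co1, mt-Nd5 and mt-Nd6 were called lower with PyMT-N cells (log2 fold changes -2.00 to -1.84), and mt-Nd6 with PyMT-M cells (-1.71 and -1.83). Mt-Nd4 was called lower with PyMT-N cells without alone replicate 2 (-1.37). The direction against alone thus depends on which alone libraries enter and on the scaling. Between the co-cultures, all PyMT-N sums lay below the PyMT-M sums (log2 ratio -0.61, without a test). Of the 10 genes, 1 (mt-Atp6) was called lower with PyMT-N than with PyMT-M cells, beside 15.5% of all tested genes. Without alone replicate 3, mt-Co1, mt-Co2, mt-Nd2 and mt-Atp6 were called lower, 4 of 10 beside 20.8%. The call of mt-Atp6 was lost in other omissions, given below.

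Mt-Co1, the catalytic subunit of complex IV, made up most of these counts (68.8% to 81.5% in every library). How reads shared with nuclear copies, described below, entered this share and the mitochondrial sums and library shares above was not tested. Mt-Co1 was at 2751, 2154 and 2617 normalised CPM with PyMT-N cells, 3568, 3892 and 5380.3 with PyMT-M cells and 2258, 1677 and 17697 alone. PyMT-N libraries were all below PyMT-M libraries, but the log2 fold change of -0.77 ± 0.79 did not pass (adjusted p = 0.504), except in the fit without alone replicate 3 (-0.77). Without alone replicate 3, mt-Co1 was 0.35 above alone with PyMT-N cells, not called, and 1.13 above with PyMT-M cells, called. Mt-Cytb, the one mitochondrial subunit of complex III, was at 318, 283 and 291 with PyMT-N cells, 231, 279 and 346 with PyMT-M cells and 137, 112 and 1131 alone. Its log2 fold changes without that library were 1.26 and 1.20, both called, where the fit of all libraries gave -0.60 and -0.66, not called.

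The mitochondrial subunits of complex I all lie in its membrane arm. Mt-Nd1 was at 290.4, 285 and 259 normalised CPM with PyMT-N cells, 278, 326 and 320.5 with PyMT-M cells and 116, 84.1 and 699.9 alone, and was called higher in both co-cultures without alone replicate 3 (log2 fold changes 1.48 and 1.63, against -0.06 and 0.09 with it). Mt-Nd2 was at 71.5, 63.4 and 53.2 with PyMT-N cells, 84.1, 101 and 122 with PyMT-M cells and 33.9, 24.3 and 173 alone, and was likewise called higher without that library (1.12 and 1.83). Mt-Nd4 averaged 203 ± 17.7 with PyMT-N cells and 232 ± 22.6 with PyMT-M cells (SD, n = 3 each) and was at 155, 115 and 909.6 alone. Mt-Nd5 averaged 116 ± 14.2 with PyMT-N cells and 149.6 ± 44 with PyMT-M cells (SD, n = 3 each) and was at 85.1, 95.6 and 857 alone. Mt-Nd4 was then called higher in both (0.59 and 0.79) and mt-Nd5 with PyMT-M cells (0.73; 0.36 with PyMT-N cells). Mt-Nd6, the one subunit encoded on the other strand, was at 25.8, 24.2 and 26.9 with PyMT-N cells, 19.6, 25.8 and 39.7 with PyMT-M cells and 30.3, 19.4 and 182 alone, and was called neither in the fit of all libraries nor without alone replicate 3. It overlaps mt-Nd5 on the opposite strand, and reads of the overlap cannot be assigned without the strand.

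**Figure D4:**
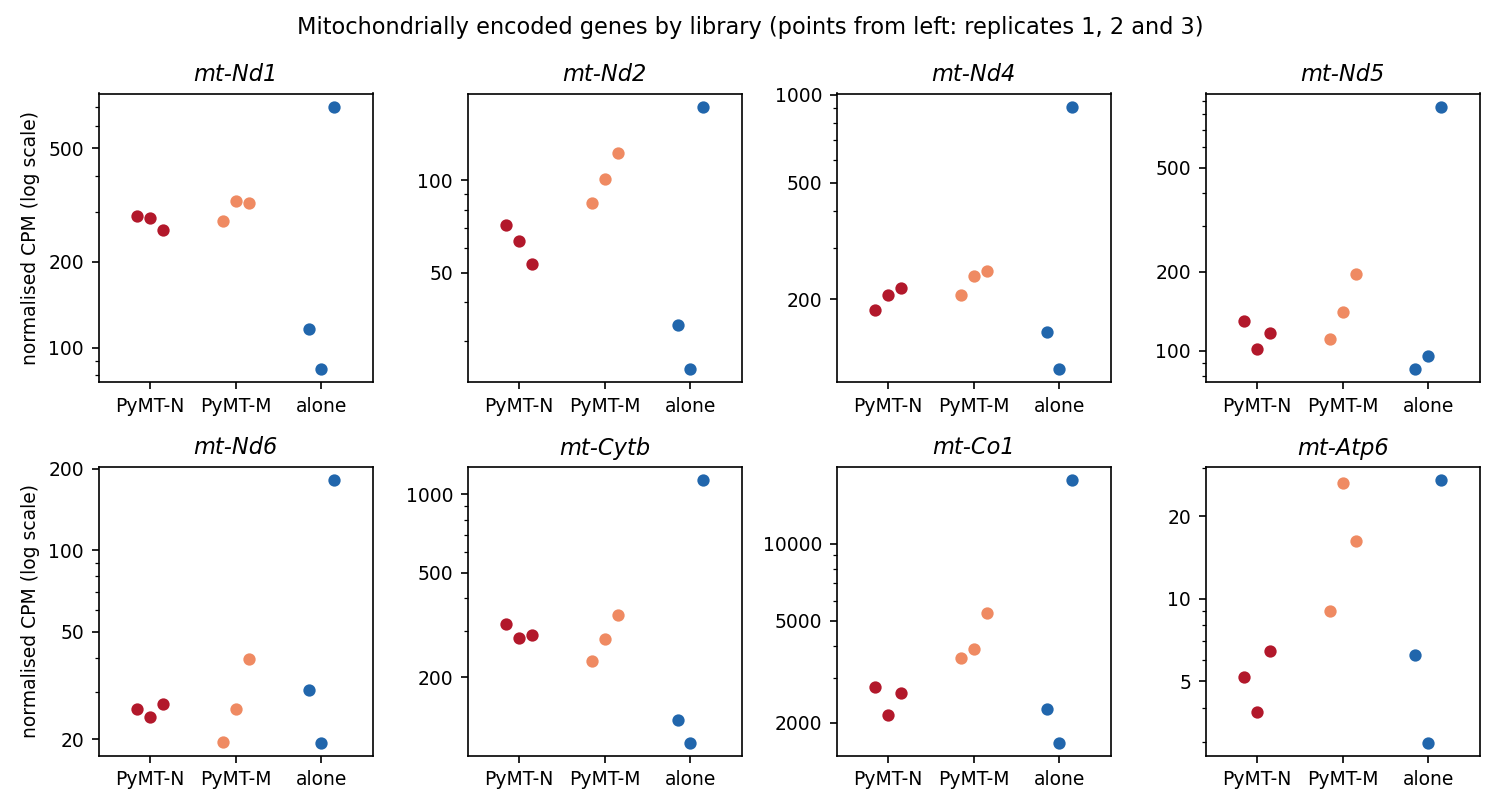
Normalised CPM (vertical axis, log scale) of 8 mitochondrially encoded genes in each library of the PyMT-N, PyMT-M and alone groups (horizontal axis), replicates 1, 2 and 3 from left to right. Replicate 3 of the alone group is the highest library for all 8 genes, at 17697 for mt-Co1, while the other alone libraries lie below the co-cultures for mt-Nd1, mt-Nd2, mt-Nd4, mt-Nd5 and mt-Cytb.

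Several mitochondrial messengers share their sequence with nuclear copies. All 50-base stretches of mt-Co2, 99.9% of those of mt-Co3 and 99.5% of those of mt-Atp6 also occur in annotated nuclear pseudogenes, as do 51.1% for mt-Co1 and 62.2% for mt-Nd4, whereas mt-Nd1, mt-Nd6 and mt-Cytb have none. No source used here says how reads with several positions were counted. Mt-Co2 averaged 2.04 ± 0.611, 5.1 ± 1.75 and 5.14 ± 5.35 normalised CPM and mt-Co3 4.98 ± 0.395, 7.26 ± 2.51 and 9.18 ± 12.3 (SD, n = 3 each) with PyMT-N cells, with PyMT-M cells and alone. Mt-Atp6, a proton-channel subunit of complex V, was at 5.17, 3.86 and 6.46 with PyMT-N cells, 9.03, 26.5 and 16.2 with PyMT-M cells and 6.24, 2.99 and 27.2 alone. It was lower with PyMT-N than with PyMT-M cells (log2 fold change -1.73 ± 0.56, adjusted p = 0.0268), a call that is uncertain for this reason and was lost without any single PyMT-N library or PyMT-M replicate 2 or 3 (-1.94 to -1.24). Against alone, none of the 3 was called in the main TMM fit of all libraries. Under leukocyte scaling, which called 63.9% of all tested genes higher with PyMT-M cells, all 3 were called higher with these cells. The log2 fold changes were 1.75 for mt-Co2, 1.54 for mt-Co3 and 2.36 for mt-Atp6. With PyMT-N cells that scaling called none of them. Without alone replicate 3, mt-Co3 (log2 fold change 1.79) and mt-Atp6 (1.97) were called higher with PyMT-M cells and mt-Co2 (1.27) was not, while the PyMT-N values of 1.29 for mt-Co3, 0.23 for mt-Atp6 and 0.01 for mt-Co2 were not called. Mt-Nd3, mt-Nd4l and mt-Atp8 were too low to test. Annotated nuclear copies also hold 98.0% of the mt-Nd3 stretches and 98.8% of those of mt-Nd4l.

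Ratios between mitochondrial messengers within a library do not depend on its total. Per 100 counts of mt-Co1, mt-Cytb had 11.6, 13.2 and 11.1 counts with PyMT-N cells, 6.48, 7.18 and 6.43 with PyMT-M cells and 6.06, 6.71 and 6.39 alone. For this ratio the PyMT-N libraries were separate from all others, and alone replicate 3 lay within its group. Mt-Nd1 had 10.6, 13.2 and 9.9 with PyMT-N cells, 7.8, 8.38 and 5.96 with PyMT-M cells and 5.15, 5.01 and 3.96 alone, separate in all 3 groups. For mt-Nd2 the ratios were 2.52 ± 0.46 and 2.41 ± 0.165 in the PyMT-N and PyMT-M co-cultures and 1.31 ± 0.286 alone (SD, n = 3 each). The other ratios did not set PyMT-N libraries apart from alone: mt-Nd4 had 8.2 ± 1.48 with PyMT-N cells, 5.53 ± 0.782 with PyMT-M cells and 6.3 ± 1 alone, and mt-Nd5 had 4.62 ± 0.14, 3.46 ± 0.317 and 4.77 ± 0.969 in the PyMT-N, PyMT-M and alone libraries (SD, n = 3 each). Mt-Nd6 had 1.03 ± 0.0934 with PyMT-N cells, 0.649 ± 0.0951 with PyMT-M cells and 1.18 ± 0.158 alone, the PyMT-M libraries lying below all others for mt-Nd5 and mt-Nd6. These ratios were chosen after the values were seen and are given without a test, and the part of the pseudogene copies of mt-Co1 in them was not tested.

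**Figure D5:**
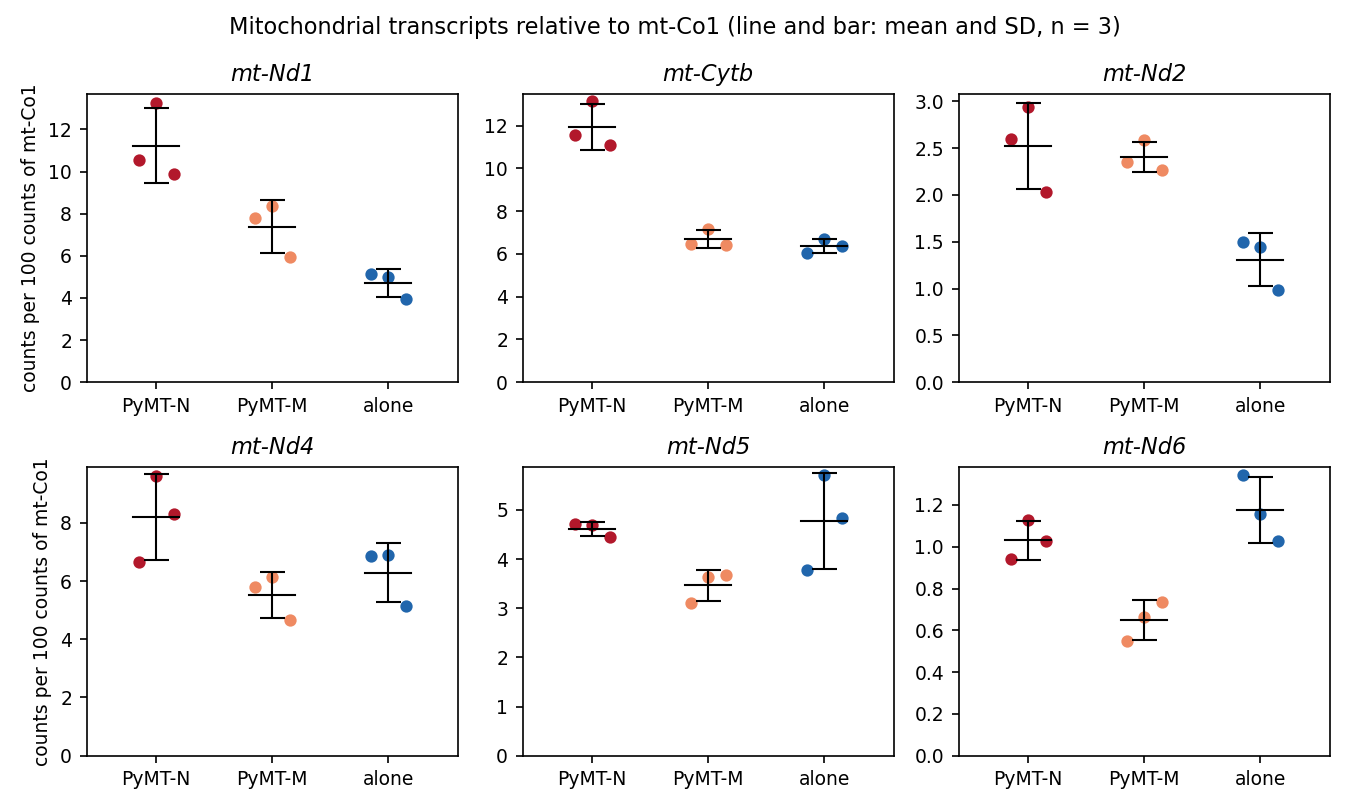
Counts of 6 mitochondrially encoded messengers per 100 counts of mt-Co1 (vertical axis) in each library of the PyMT-N, PyMT-M and alone groups (horizontal axis), with mean and SD of 3 libraries. For mt-Cytb the PyMT-N libraries lie at 11.1 to 13.2 and all others at 6.06 to 7.18.

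The mitochondrial ribosomal RNAs come from the same precursor as most of the messengers. Mt-Rnr1, of the small subunit, was at 157, 134 and 109.6 normalised CPM with PyMT-N cells, 167, 171 and 299 with PyMT-M cells and 324, 309 and 551 alone. It fell by 1.55 on the log2 scale with PyMT-N cells (adjusted p = 0.000211) and by 0.89 with PyMT-M cells (adjusted p = 0.0103), with no overlap with alone. Both falls were also called without alone replicate 3 (-1.24 and -0.57). Under leukocyte scaling the difference with PyMT-N cells was -0.45, not called, and that with PyMT-M cells turned to a called 0.67. Mt-Rnr2, of the large subunit, took 4.0%, 2.65% and 2.70% of all counts with PyMT-N cells, 7.24%, 6.12% and 11.1% with PyMT-M cells and 7.39%, 5.92% and 12.7% alone. It was lower with PyMT-N than with PyMT-M cells (log2 fold change -1.17 ± 0.33, adjusted p = 0.0177), with -1.17 without alone replicate 3 and -1.64 under leukocyte scaling, both called. Against alone it fell with PyMT-N cells by 1.77 (adjusted p = 0.00113), and without alone replicate 3 by 1.36, but the difference of -0.68 under leukocyte scaling was not called. With PyMT-M cells the difference from alone was -0.60 with all libraries and -0.19 without alone replicate 3, neither called.

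Counts for genes around the chain are read beside the shares of all tested genes called higher and lower, 29.4% and 23.6% with PyMT-N cells and 28.2% and 27.9% with PyMT-M cells, relative to alone. Of 20 tested genes for maintenance and expression of mitochondrial DNA, 7 rose and 2 fell with PyMT-N cells (35% and 10%) and 11 rose and 2 fell with PyMT-M cells (55% and 10%). Pnpt1, a mitochondrial RNA-degrading enzyme that is also interferon-induced, was at 47.1, 60.3 and 64.1 normalised CPM with PyMT-N cells, 121, 119 and 121 with PyMT-M cells and 5.79, 4.48 and 8.3 alone (log2 fold changes 3.29 and 4.36 against alone, adjusted p = 7.47e-07 and 6.37e-08). Lrpprc, which stabilises mitochondrial messengers, was at 35.9 ± 5.35 with PyMT-N cells, 105 ± 15.2 with PyMT-M cells and 29.1 ± 4.66 alone (SD, n = 3 each) and rose with PyMT-M cells (1.82, adjusted p = 2.22e-05) but passed no test with PyMT-N cells (0.27, adjusted p = 0.4). The difference between the co-cultures was itself called (-1.55, adjusted p = 6.35e-05). Among the mobile carriers and remaining subunits, 3 of 6 tested genes rose and 1 fell with PyMT-N cells and 4 rose and 1 fell with PyMT-M cells. Cycs, cytochrome c, was at 30.8 ± 3.03 with PyMT-N cells, 23 ± 3.09 with PyMT-M cells and 6.55 ± 1.38 alone (SD, n = 3 each). Cyc1, the heme subunit of complex III outside the symbol rule, was at 69.8 ± 7.37 with PyMT-N cells, 103 ± 7.02 with PyMT-M cells and 37.2 ± 10.7 alone. Both rose in both co-cultures (Cycs 2.19 and 1.77, adjusted p = 8.03e-05 and 0.000627; Cyc1 0.89 and 1.44, adjusted p = 0.00656 and 0.000142).

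Assembly factors outside the rule gave calls in both directions. For complexes III to V, 3 of 22 tested rose and 2 fell with PyMT-N cells (13.6% and 9.09%, beside 29.4% and 23.6% of all tested genes) and 6 rose and 4 fell with PyMT-M cells (27.3% and 18.2%, beside 28.2% and 27.9%). Cox10, which makes the heme of complex IV, averaged 6.2 ± 2.46 normalised CPM with PyMT-N cells, 17.1 ± 3.4 with PyMT-M cells and 1.74 ± 1.55 alone (SD, n = 3 each) and rose with PyMT-M cells (3.04, adjusted p = 0.000323; with PyMT-N cells 1.61, adjusted p = 0.0553), while Coa4 fell in both (-2.30 and -1.74, adjusted p = 0.000171 and 0.000879). For complex I outside the Ndufaf names, none of 9 was called with PyMT-N cells and 4 rose with PyMT-M cells, Ecsit (2.6, adjusted p = 0.00141) and Tmem186 (1.68, adjusted p = 0.00365) among them. In the tricarboxylic acid cycle and its pyruvate supply, 5 of 20 rose and 4 fell with PyMT-N cells (25% and 20%) and 9 rose and 3 fell with PyMT-M cells (45% and 15%). Idh3a, a subunit of isocitrate dehydrogenase, was at 117 ± 7.6 with PyMT-N cells, 70.1 ± 5.91 with PyMT-M cells and 8.6 ± 6.17 alone (log2 fold changes 3.59 and 2.85, adjusted p = 4.22e-07 and 7.35e-06). Mpc1, part of the pyruvate carrier, was at 9.76, 7.71 and 10.3 with PyMT-N cells, 29.7, 28.1 and 25.3 with PyMT-M cells and 171, 157 and 183 alone (-4.18 and -2.61, adjusted p = 3.63e-09 and 2.42e-07).

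Of 7 tested transcription factors and coactivators of respiratory genes, 1 rose and 2 fell with PyMT-N cells (14.3% and 28.6%, beside 29.4% and 23.6% of all tested genes) and 1 rose and 4 fell with PyMT-M cells (14.3% and 57.1%, beside 28.2% and 27.9%). Under leukocyte scaling 4 were called higher and 0 lower in each comparison with alone. These are 57.1% higher in each, beside 57.8% of all tested genes with PyMT-N and 63.9% with PyMT-M cells. Ppargc1b, a coactivator of respiratory genes, was at 16.6, 11.6 and 7.53 normalised CPM with PyMT-N cells, 1.29, 0.382 and 0.266 with PyMT-M cells and 0.891, 2.24 and 0.754 alone, and was called higher with PyMT-N cells than in either other group (2.99 and 4.07, adjusted p = 0.000475 and 1.77e-05). Esrra, the nuclear receptor it works with, was at 42.1 ± 3.77 with PyMT-N cells, 19.8 ± 4.4 with PyMT-M cells and 47.6 ± 14.9 alone (SD, n = 3 each) and fell with PyMT-M cells (-1.22, adjusted p = 0.00248).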

How the data were processed

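RNA was sequenced from 9 libraries, and the authors deposited raw read counts per gene, unnormalised, for all of them in 1 table. Reads were aligned with STAR, and builds GRCm38 and mm10 are named, per the submitters' processing notes; no source used here names the counting software, the gene annotation or how strand was handled. Of 54532 identifiers 54409 matched a symbol in GENCODE M21. Genes were filtered with filterByExpr (minimum count 10, total 15), normalised by TMM and tested in edgeR 4.0.16 (R 4.3.3) by the robust quasi-likelihood F test with all 9 libraries in 1 fit, Benjamini-Hochberg adjusted over 12012 genes, threshold 0.05. Standard errors derive from the F statistic. The script was tested on simulated data. The members and lists were chosen with earlier results of these data known. Genes named were all mitochondrially encoded and Sdh genes, the isoform groups, the complex I assembly genes of smallest p and, per complex and comparison, the called genes of smallest p and the gene of highest level per kilobase; exceptions are marked. Shared sequence is the percent of a gene's 50-base transcript stretches found in another annotated gene. No identical libraries were found. Alternatives included DESeq2 1.42.0. Library names carry the same number for the same replicate in every group, and whether these libraries share an origin is not stated. Same-number deviations correlated between -0.08 and 0.03, which with so few libraries per group cannot exclude pairing. The main fit did not use pairing.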

Additional observations from a re-analysis of the deposited data

Results flagged for a closer look

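For 7 genes the fitted differences of the co-cultures from alone had opposite signs, and the direct comparison of PyMT-N against PyMT-M was called by edgeR. Its log2 fold change was -0.66 for Atp5c1, -1.91 for Atp5g2, -1.06 for Atp5h, -1.73 for mt-Atp6, -1.19 for Ndufb10 and -0.67 for Ndufs1, an iron-sulfur subunit of complex I, and 0.72 for Sdhaf2. Ndufs1 and Sdhaf2 were named after their values were seen. Against alone, Atp5c1, Atp5g2, Atp5h and Ndufb10 were called lower with PyMT-N cells. With PyMT-M cells none of the 7 was called in the fit of all libraries, and their PyMT-M libraries all overlapped the alone libraries (Atp5c1 differed by 0.04).

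The opposite signs depended on the scaling and on 1 library. Under leukocyte scaling all 7 were above alone in both co-cultures, with PyMT-N values of 0.48 for Atp5c1, 0.011 for Atp5g2, 0.18 for Atp5h, 0.21 for mt-Atp6, 0.26 for Ndufb10, 0.75 for Ndufs1 and 1.24 for Sdhaf2. Without alone replicate 3, mt-Atp6 was above alone in both (0.23 with PyMT-N and 1.97 with PyMT-M cells), and Atp5c1 and Sdhaf2 were below it in both (-0.76 and -0.11, and -0.04 and -0.77). In that fit the PyMT-M rises of Atp5g2 (1.48), mt-Atp6 (1.97) and Ndufb10 (0.71) and the PyMT-M fall of Sdhaf2 (-0.77) were called. The PyMT-N falls of Atp5g2 and Ndufb10 were not. Shared sequence was 99.5% for mt-Atp6, 38.3% for Atp5g2, 19.9% for Atp5h and 3.1% for Atp5c1. The part of transcripts from other cells in these differences was not tested.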

How the results depend on the processing

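Among members named by the rule, all 25 rises against alone and all 9 falls of PyMT-N against PyMT-M kept their call under leukocyte scaling. That scaling shifts most genes in these same directions, so this is no independent support. Of 14 falls against alone 1 was kept, and 20 of all 48 calls were lost without some single library. Counts of member calls below are given as higher and lower, first with PyMT-N and then with PyMT-M cells relative to alone, then between PyMT-N and PyMT-M, where the reported counts are 20 and 14, 24 and 7, and 1 and 10. Shares of all tested genes were computed only for the main fit, leukocyte scaling and the fit without alone replicate 3. The other counts cannot be set beside such a share. Leukocyte scaling gave 53 and 1, 81 and 0, and 0 and 25. Library totals gave 27 and 4, 41 and 1, and 0 and 20. An adjusted p under 0.01 gave 10 and 3, 14 and 4, and 0 and 4, and a fold threshold of 1 (log2) gave 6 falls, 3 falls, and 0 and 4. Without a filter PyMT-M had 11 falls against alone. Fits of the compared groups only gave 2 and 18 for PyMT-N against PyMT-M. The single gene higher there was 0 under DESeq2, relative log expression factors, no filter, the filter of 50 counts and the replicate block. Whether libraries of the same number are paired is not known. With the replicate block the counts were 18 and 12, 22 and 7, and 0 and 8. Leaving out single libraries gave 12 to 24 and 6 to 16, 16 to 33 and 4 to 12, and 0 to 4 and 4 to 19.

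The log2 ratio of nuclear sums was 0.97, 1.59 and -0.62 in these comparisons with leukocyte scaling, 0.16, 0.59 and -0.42 with library totals, and ranged from -0.20 to -0.0042, 0.01 to 0.21 and -0.29 to -0.15 without single libraries. The ratio of mitochondrial sums was 0.56 with PyMT-N cells relative to alone (-0.54 as reported, the opposite sign), 1.58 with PyMT-M cells and -1.02 between PyMT-N and PyMT-M with leukocyte scaling, and ranged from -1.16 to 0.51, -0.55 to 1.13 and -0.74 to -0.46 without single libraries. Leukocyte scaling turned the sign of these log2 fold changes, called in at least 1 of the fits, for PyMT-N against alone: Atp5c1 0.48, Atp5g2 0.011, Atp5h 0.18, Cox4i1 0.64, Ndufb10 0.26, Sdha 0.83, Sdhb 0.94, Sdhd 0.41, Uqcrfs1 0.19 and Uqcrh 0.27; and for PyMT-M against alone: Cox4i1 1.07, Cox6a1 1.37, Cox7a2l 0.59, Cox8a 1.19, Ndufa2 1.28, Ndufa6 0.47, Ndufaf7 0.92, Sdha 1.33, Sdhb 1.34, Sdhd 0.99, Uqcrfs1 1.02 and Uqcrh 0.67. With no call in either fit it also turned, with PyMT-N cells, mt-Nd1 (1.07), mt-Nd2 (0.95), mt-Nd4 (0.22), mt-Cytb (0.53), mt-Co2 (0.097), mt-Co3 (0.65), mt-Atp6 (0.21) and Ndufa2 (0.87), and with PyMT-M cells, mt-Nd4 (0.82), mt-Nd5 (0.40), mt-Nd6 (0.24), mt-Cytb (0.91) and mt-Co1 (0.81). Its median shift over all genes was 1.10 and 1.46. Leaving out alone replicate 3 turned the sign of mt-Cytb (range over omissions -1.07 to 1.26 with PyMT-N, -1.12 to 1.20 with PyMT-M), mt-Nd1 (-0.52 to 1.48), mt-Nd2 (-0.64 to 1.12) and mt-Nd4 (-1.37 to 0.59) with PyMT-N, and mt-Co1 (-1.21 to 1.13), mt-Nd4 (-1.17 to 0.79) and mt-Nd5 (-1.63 to 0.73) with PyMT-M. DESeq2 gave no adjusted p for 5 members. The cause of these differences was not tested. Low counts limit mt-Co2, mt-Co3, mt-Atp6 and the small assembly factors.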
